A study of Mus musculus with 4 samples.

Results

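Mueller glia are the radial glial cells of the retina, and the 10 genes described here, Rlbp1, Glul, Slc1a3, Aqp4, Kcnj10, Apoe, Clu, Dkk3, Car14 and Sox9, encode proteins by which these cells keep the retinal environment stable, together with a transcription factor of the glial lineage. They were taken by name from a list, and all 10 were found, each at 1 locus, among 22558 gene symbols in every library. The samples were whole retinas of Fezf2 knockout (KO) mice and of control littermates, labelled wildtype, on postnatal days 7 (P7) and 14 (P14), with the background strain given as C57/BL/6J. Fezf2 is a zinc-finger transcription factor, and the comparison addresses its role in retinal development. The labels give no detail of the deleted allele. There was 1 library for each genotype and age, 4 in all, so that no single group had a replicate, and whether a library came from 1 mouse or from several is not given in the sources used here.

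Mueller glia are among the last cells to be born from retinal progenitors, and they mature while photoreceptors and bipolar cells form synapses. They clear glutamate from synapses and turn it into glutamine, pass potassium and water to vessels and the vitreous, buffer acid, carry retinoids for cone pigments and secrete lipid carriers. Levels are given in FPKM, fragment counts scaled to transcript length and to the mapped fragments of the library, which can be compared between genes. Bounds below and above were deposited with each FPKM. A pair of libraries is said to differ beyond counting error where their bounds did not overlap. The bounds cover the counting of reads within a library and nothing of the spread between mice. Differences are on the scale of log2(FPKM + 1), and ratios are of the FPKM themselves.

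The labels were checked with Fezf2, which stood at 8.32 FPKM in control P7, 0.592 in KO P7, 4.02 in control P14 and 0.126 in KO P14, so it was far lower in both KO libraries. The bound widths implied between 9280000 and 12430000 fragments in a library, if a bound lies 2 standard deviations from its centre. Of 12 rod photoreceptor markers all were at 1 FPKM or more in the comparisons made, with a summed level of 8633 to 28696 FPKM. All 29 other Mueller glia genes, on a list chosen with earlier results of these data known, were at 1 FPKM or more too. Since whole retina was sequenced, fewer Mueller glia and less RNA per cell cannot be told apart.

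At P7 the 10 genes spanned 1.92 FPKM (Aqp4) to 335 FPKM (Apoe) in the control library and 1.78 to 377 FPKM in the KO library. At P14 they spanned 4.56 FPKM (Sox9) to 1124 FPKM (Glul) in the control and 4.78 to 1190.0 FPKM in the KO library. Their summed level was 1058 FPKM in control P7, 1101 in KO P7, 2831 in control P14 and 2930.2 in KO P14, which was 0.273%, 0.279%, 0.694% and 0.701% of all FPKM in those libraries. Apoe led at P7, and Glul led at P14 with 39.7% of the summed level of the 10 genes in the control and 40.6% in the KO library. Among neighbours in the order, the bounds of Glul, Dkk3 and Rlbp1 met in control P7, those of Dkk3 and Rlbp1 in KO P7 and those of Clu and Dkk3 in control P14. Rlbp1 followed Dkk3 in control P14 and Clu in KO P14 by FPKM, but its bounds lay above theirs (295 to 312 against 282 to 294 FPKM, and 299 to 313 against 277 to 290.2 FPKM), so the order of these pairs depends on which value is read. The bounds of all other neighbours stood apart in the order of the FPKM.

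**Figure D1:**
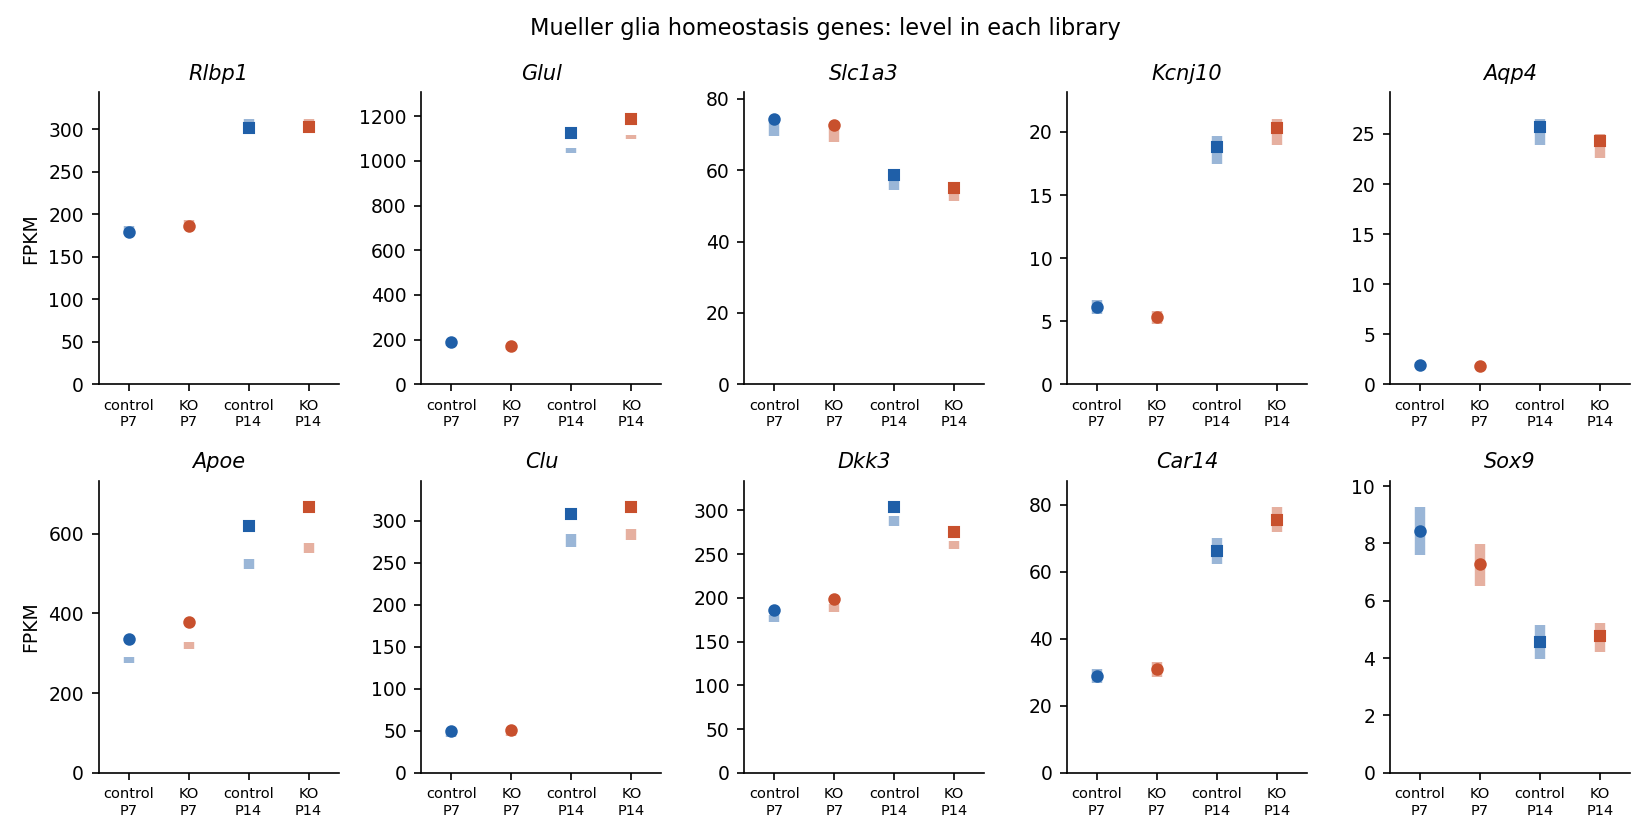
Level of each of the 10 genes (y axis, FPKM, from 0) in the 4 libraries, with the deposited FPKM as a point and the deposited bounds as a pale bar. Of the 10 genes, 8 stand higher at P14 than at P7 in both genotypes, Slc1a3 and Sox9 stand lower, and for Glul, Apoe, Clu and Dkk3 the point lies above its own bar.

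Promoters are shown for 4 genes that differ in how they moved with age. RefSeq windows in the GRCm38.p6 build, taken by symbol, were used for 6 of the 10 genes. No window of Aqp4, Clu, Dkk3 or Sox9 was searched, so the letter matches do not cover these genes. The 250 bases before the start are printed on the gene's strand, 5′ to 3′. Capitals mark matches, on either strand, to the letters searched. For SOX factors these were ACAAAG, and as another form ACAATG. For LIM and Rax homeobox factors they were TAATTA, for CRX and OTX factors TAATCC, and for nuclear factor I proteins TTGGCA. The GC box was searched as GGGCGG and the TATA box as TATAAA. Glul lies at chr1:153899679-153899928 on the plus strand, Kcnj10 at chr1:172340960-172341209 on the plus strand, Rlbp1 at chr7:79387028-79387277 on the minus strand and Slc1a3 at chr15:8710808-8711057 on the minus strand.
Glul: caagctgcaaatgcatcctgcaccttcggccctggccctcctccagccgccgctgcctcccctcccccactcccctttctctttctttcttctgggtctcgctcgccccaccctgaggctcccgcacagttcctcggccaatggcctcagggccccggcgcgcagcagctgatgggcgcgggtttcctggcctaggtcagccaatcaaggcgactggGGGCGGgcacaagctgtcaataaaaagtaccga
Kcnj10: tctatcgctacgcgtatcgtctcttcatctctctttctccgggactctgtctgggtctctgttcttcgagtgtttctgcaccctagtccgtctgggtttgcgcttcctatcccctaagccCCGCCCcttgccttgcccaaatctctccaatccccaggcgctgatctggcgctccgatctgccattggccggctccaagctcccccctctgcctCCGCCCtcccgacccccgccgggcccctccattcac
Rlbp1: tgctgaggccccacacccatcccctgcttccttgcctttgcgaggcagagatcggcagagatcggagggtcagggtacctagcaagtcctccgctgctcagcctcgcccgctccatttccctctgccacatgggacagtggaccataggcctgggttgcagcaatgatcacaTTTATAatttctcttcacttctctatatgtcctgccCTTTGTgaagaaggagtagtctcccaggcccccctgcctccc
Slc1a3: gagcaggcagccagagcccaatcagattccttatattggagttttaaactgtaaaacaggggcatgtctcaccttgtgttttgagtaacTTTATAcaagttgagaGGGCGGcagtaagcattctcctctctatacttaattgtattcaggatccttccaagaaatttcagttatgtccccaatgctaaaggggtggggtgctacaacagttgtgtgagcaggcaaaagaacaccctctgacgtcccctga

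G and C made up 64.8% of the Glul window, with 15 CpG dinucleotides, and 62.0% of the Kcnj10 window, with 17. The shares were 57.2% with 6 CpG in Rlbp1, 62.0% with 10 in Car14, 51.2% to 57.2% with 8 to 10 in the Apoe windows and 44.8% with 2 in Slc1a3. The median over 32817 RefSeq windows of this length was 52.4% and 6. The GC box was found in Glul, Kcnj10 and Slc1a3, and in 32.7% of all windows. The SOX letters ACAAAG were found in Rlbp1, from base 42 to base 37 before the start, and in the first of 3 Apoe windows, and in 16.5% of all windows. ACAATG was found in that Apoe window and in 10.7% of all windows. TATAAA was found in Rlbp1, Slc1a3 and an Apoe window, and in 12.4% of all windows. TAATCC was found in Car14 and Apoe (6.25% of all windows), TTGGCA in an Apoe window (12.3%) and TAATTA in none of the 8 windows searched (4.85%). These are matches of letters within short windows and are not binding sites.

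From P7 to P14, 8 of the 10 genes rose and 2 fell, in the control and in the KO libraries alike. In the control the median log2 difference of the 10 genes was 1.03, against -0.08 over 13108 genes, and in the KO it was 1.04, against -0.09 over 13039 genes. Higher beyond counting error at P14 were 8 of 10 in each genotype, where the share over all genes was 27.6% in the control and 29.0% in the KO. Lower beyond it were 2 of 10 in each, where the share over all genes was 37.7% and 39.4%. Counting error is small for abundant genes, and 7 of the 10 were at 50 FPKM or more in either library of each pair. The share of all genes at that level was not taken for age. The 10 genes were also chosen with earlier results of these data known. A limma fit of all 4 libraries, with terms for age and genotype, was used to test age with 2 libraries of different genotype at each age. Its standard errors and p-values hold no spread between replicate libraries, since no group had any. The limma fit called all 10 at an adjusted p (Benjamini-Hochberg) below 0.05, from 6.2e-11 for Clu to 0.00072 for Slc1a3. The same fit called 30.7% of 12925 genes higher and 40.6% lower at P14, so a call by itself sets no gene apart. With no filter on low values it called 5 of the 10, and Slc1a3, Kcnj10, Apoe, Dkk3 and Sox9 did not pass.

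Aqp4 showed the steepest rise of the 10 genes. Aqp4 (chr18:15547903-15562193 in mm9, the build of the files) encodes the water channel aquaporin-4 of glial endfeet. It stood at 1.92 FPKM in control P7, 1.78 in KO P7, 25.7 in control P14 and 24.3 in KO P14. Both P14 libraries were high and both P7 libraries low, with no overlap. The ratio of P14 to P7 was 13.4 in the control and 13.6 in the KO, log2 differences of 3.19 and 3.18. The fitted age difference was 3.19 ± 0.10 (SE, 2 libraries per age, limma adjusted p 2.5e-10). Ranked by log2 rise, Aqp4 was number 27 of 13108 genes in the control and number 25 of 13039 in the KO.

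Kcnj10 (chr1:174271341-174304216) encodes the inward-rectifier potassium channel Kir4.1, which sits beside aquaporin-4 in endfeet and takes up potassium released by active neurons. Its level was 6.14 FPKM in control P7, 5.32 in KO P7, 18.8 in control P14 and 20.3 in KO P14. The P7 and P14 values did not overlap, and the ratio was 3.06 in the control and 3.82 in the KO, log2 differences of 1.47 and 1.76. The fitted age difference was 1.61 ± 0.10 (SE, limma adjusted p 7.1e-08). The balance of the pair turned with age. Aqp4 was at 0.312 times the level of Kcnj10 in control P7 and 0.335 times in KO P7, and at 1.37 and 1.19 times at P14, and in each library their bounds did not overlap.

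Glutamate handling split into a gene that rose steeply and one that fell. Glul (chr1:155747075-155756844) encodes glutamine synthetase, which turns glutamate into glutamine. It measured 188 FPKM in control P7 (bounds 172 to 180), 169 in KO P7 (155 to 163), 1124 in control P14 (1035 to 1057) and 1190.0 in KO P14 (1097 to 1116). Every value lay above its own upper bound, so bounds were set only against bounds. The ratio of P14 to P7 was 5.97 in the control and 7.02 in the KO, log2 differences of 2.57 and 2.80. The fitted difference was 2.69 ± 0.07 (SE, limma adjusted p 6.6e-11). By level, Glul moved from rank 244 of 21781 genes in control P7 to rank 18 in control P14, and from rank 305 to rank 20 in the KO.

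Slc1a3 (chr15:8584124-8660807) encodes GLAST, the main glutamate transporter of Mueller glia. It stood at 74.4 FPKM in control P7, 72.8 in KO P7, 58.6 in control P14 and 55.1 in KO P14, with the P14 values below the P7 values in both genotypes and no overlap. The ratio was 0.787 in the control and 0.757 in the KO, log2 differences of -0.34 and -0.40. The fitted age difference was -0.37 ± 0.07 (SE, limma adjusted p 0.00072). Glul was thus 2.53 times the level of Slc1a3 in control P7 and 19.2 times in control P14, and 2.33 and 21.6 times in the KO libraries.

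The secreted carriers both rose. Clu (chr14:66587320-66600382) encodes clusterin, an extracellular chaperone, and stood at 49.4 FPKM in control P7, 51.4 in KO P7, 308 in control P14 and 316 in KO P14. Its P7 values lay close together and far below those at P14, with a ratio of 6.24 in the control and 6.15 in the KO. The fitted log2 difference was 2.61 ± 0.07 (SE, limma adjusted p 6.2e-11). Apoe (chr7:20281593-20284515) encodes apolipoprotein E, the main lipid carrier of glia, and measured 335 FPKM in control P7, 377 in KO P7, 619.8 in control P14 and 666 in KO P14. Its rise was smaller, with ratios of 1.85 and 1.77 and a fitted log2 difference of 0.85 ± 0.06 (SE, limma adjusted p 2.4e-07). Microglia also express Apoe, and the summed level of 14 microglia and macrophage markers went from 102 and 105 FPKM at P7 to 60.4 and 53.7 FPKM at P14 in control and KO. Their part in the change of Apoe was not tested.

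Rlbp1 (chr7:86519756-86531913) encodes CRALBP, which binds 11-cis-retinal in Mueller glia and in the pigment epithelium. Its level was 179 FPKM in control P7, 186 in KO P7, 301 in control P14 and 303 in KO P14, with no overlap between the ages. The ratio was 1.68 in the control and 1.63 in the KO, and the fitted log2 difference 0.72 ± 0.07 (SE, limma adjusted p 1.3e-06). Pigment epithelium markers rose in sum, though not all of them rose. Their summed level, over 17 genes of which 0 stayed under 0.1 FPKM in every library, was 126 FPKM in control P7, 144 in KO P7, 275 in control P14 and 206 in KO P14. Of 14 markers at 1 FPKM or more, 11 were higher and 1 lower beyond counting error at P14 in the control, and 8 and 4 in the KO. Over all genes 27.6% were higher and 37.7% lower in the control, and 29.0% and 39.4% in the KO. The 4 lower in the KO were Pmel (21.0 to 3.88 FPKM), Dct, Tyrp1 and Tyr. Rgr and Trpm1 rose in both genotypes, and they are also on the lists of other Mueller glia genes and of bipolar cell markers. Their part in the rise of Rlbp1 was not tested.

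Car14 (chr3:95701723-95708562) encodes carbonic anhydrase 14, a membrane enzyme that interconverts carbon dioxide and bicarbonate. It stood at 28.9 FPKM in control P7, 30.9 in KO P7, 66.2 in control P14 and 75.4 in KO P14. The ratio was 2.29 in the control and 2.44 in the KO, with a fitted log2 difference of 1.21 ± 0.08 (SE, limma adjusted p 6.4e-08). Dkk3 (chr7:119259533-119302571) encodes a secreted protein of the Dickkopf family, whose other members block Wnt signalling. It measured 187 FPKM in control P7, 199 in KO P7, 304 in control P14 and 275 in KO P14. Dkk3 had the smallest rise, with ratios of 1.63 and 1.38 and a fitted log2 difference of 0.58 ± 0.07 (SE, limma adjusted p 1.9e-05).

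Sox9 (chr11:112643524-112649071), the transcription factor gene of the 10, fell. Its level was 8.44 FPKM in control P7, 7.28 in KO P7, 4.56 in control P14 and 4.78 in KO P14, and the bounds at P14 lay below those at P7 in both genotypes. The ratio was 0.541 in the control and 0.656 in the KO, log2 differences of -0.76 and -0.52. The fitted difference was -0.64 ± 0.11 (SE, limma adjusted p 0.00022). Progenitors express Sox9 as well, and progenitor and cell cycle markers fell over the same days, with a summed level of 454 and 440.2 FPKM at P7 and 204 and 183 FPKM at P14 in control and KO. In the control 10 of 11 such markers at 1 FPKM or more were lower at P14 beyond counting error and 1 was higher. The shares over all genes in the control were 37.7% lower and 27.6% higher. Their part in the fall of Sox9 was not tested.

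**Figure D2:**
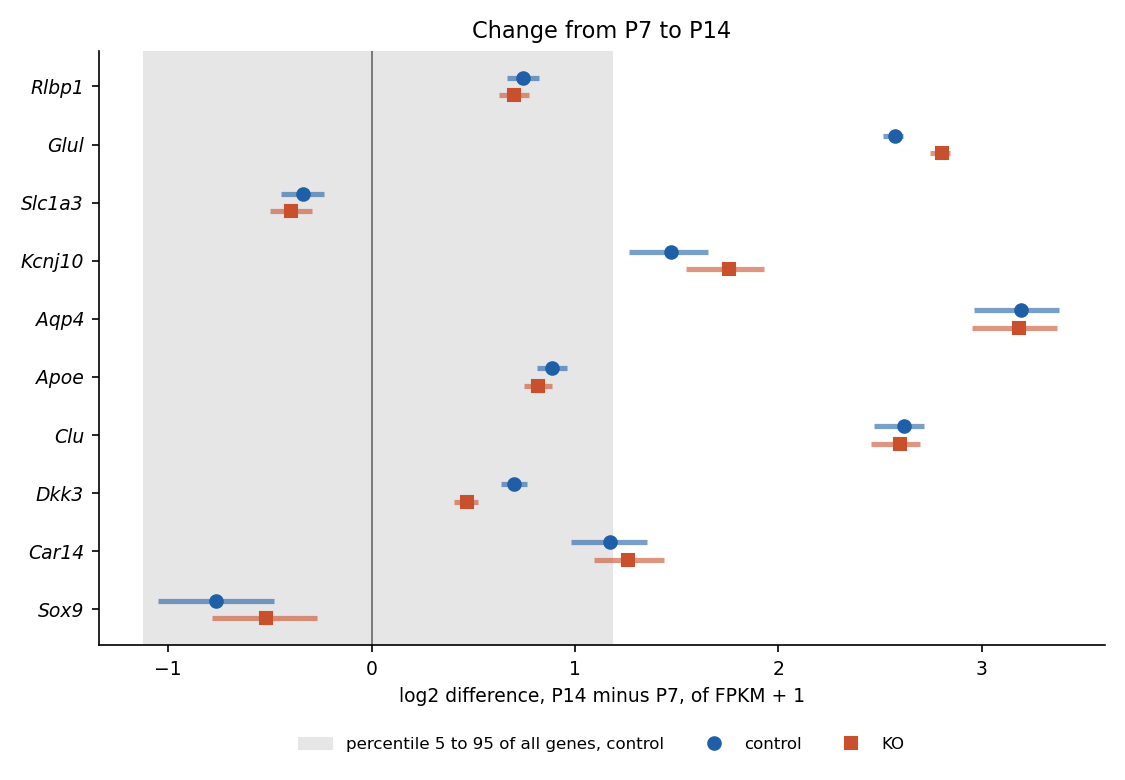
Change of each gene from P7 to P14 (x axis, log2 difference of FPKM + 1) in the control (circles) and KO (squares) libraries, with bars for the range that the bounds allow and grey for percentiles 5 to 95 of all genes in the control. Aqp4, Clu, Glul and Kcnj10 lie to the right of the grey band in both genotypes, and Slc1a3 and Sox9 lie left of 0.

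The age changes of the 10 genes were close in control and KO. The log2 change in the KO minus that in the control was nearest to 0 for Aqp4 (-0.01), Clu (-0.02), Rlbp1 (-0.05), Slc1a3 (-0.06) and Apoe (-0.07). It was 0.09 for Car14, 0.23 for Glul, 0.24 for Sox9 and 0.28 for Kcnj10, and -0.23 for Dkk3. The median size was 0.08, and over 12925 genes it was 0.13 with a 90th percentile of 0.36. The ranges that the bounds allow for the change in the control and in the KO did not overlap for Glul (2.51 to 2.61 and 2.75 to 2.84) and Dkk3 (0.64 to 0.76 and 0.41 to 0.52). With 1 library a group, no test of these differences was possible.

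Between the genotypes the 10 genes differed little. At P7 the log2 differences, KO minus control, ran from -0.19 (Sox9) to 0.17 (Apoe), with a median of 0.01 against 0.01 over 12660 genes. At P14 they ran from -0.14 (Dkk3) to 0.19 (Car14), with a median of 0.05 against 0.003 over 12804 genes. In the limma fit 0 of the 10 were called for genotype, 0 had an unadjusted p below 0.05, and the adjusted p ran from 0.54 for Apoe to 0.97 for Kcnj10. The same fit called 0.24% of 12925 genes, and 1179 had an unadjusted p below 0.05.

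At P7, Apoe and Dkk3 were higher in the KO and Glul was lower beyond counting error, and the bounds of the other 7 genes overlapped. Of all genes, 7.35% were higher and 6.1% lower in this way. Apoe had bounds of 275 to 291 FPKM in the control and 311 to 328 in the KO (log2 difference 0.17), Dkk3 had 173 to 181 and 184 to 193 (0.09), and the Glul bounds given above had a log2 difference of -0.15. Counting error is small for abundant genes. Among genes at 50 FPKM or more in either library 28.9% differed beyond it in either direction, as did 3 of the 6 members at that level.

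At P14, Apoe, Car14 and Glul were higher in the KO and Dkk3 was lower beyond counting error. Over all genes 7.45% were higher and 8.26% lower, and among genes at 50 FPKM or more 38.5% differed in either direction, as did 4 of the 7 members at that level. Apoe had bounds of 512 to 537 FPKM in the control and 552 to 575 in the KO (log2 difference 0.10), and Car14 had 62.2 to 70.2 and 72.0 to 79.3 (0.19). Dkk3 had bounds of 282 to 294 FPKM in the control and 256 to 265 in the KO (-0.14), and Glul, with bounds given above, had a log2 difference of 0.08. Apoe was the 1 member that differed beyond counting error in the same direction at both ages. Glul and Dkk3 differed in opposite directions at P7 and P14. With FPKM rescaled to the same total in each library (a TPM scale), Car14 no longer stood apart at P14 and Slc1a3 did, lower in the KO, while the log2 difference of Glul fell from 0.08 to 0.05.

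**Figure D3:**
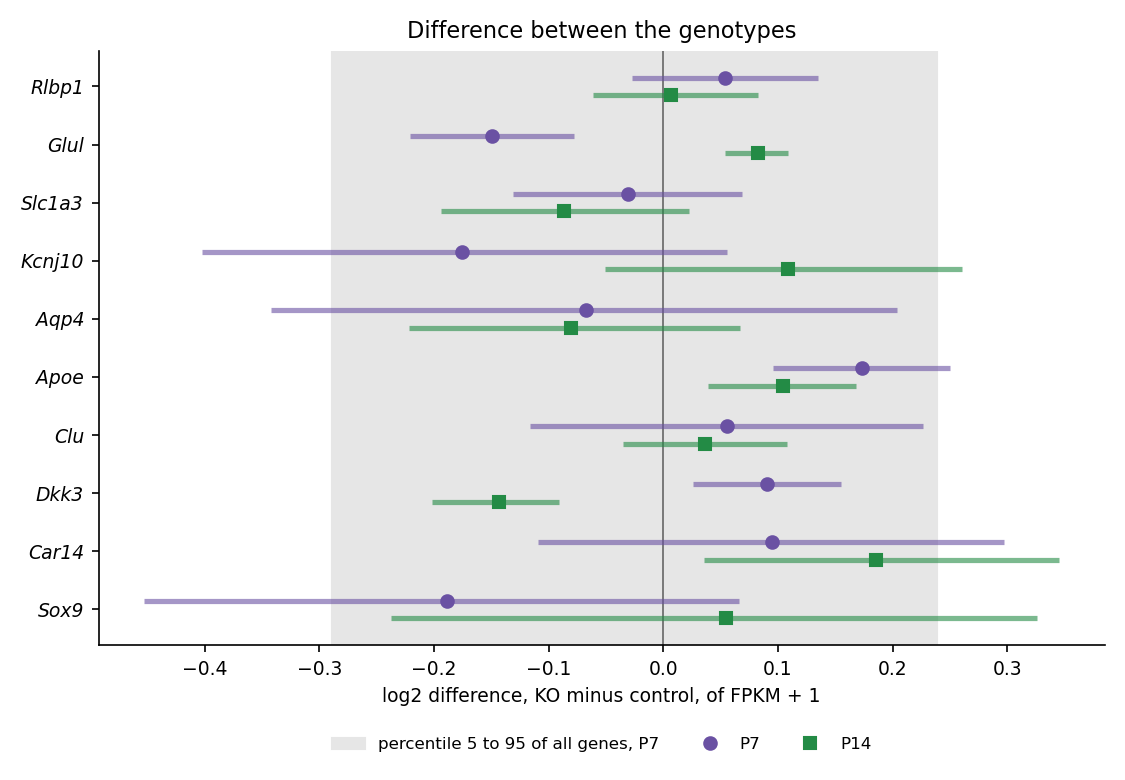
Difference between KO and control for each gene (x axis, log2 difference of FPKM + 1) at P7 (circles) and P14 (squares), with bars for the range that the bounds allow and grey for percentiles 5 to 95 of all genes at P7. All 20 points lie within the grey band, and the bars of Glul and Dkk3 fall on opposite sides of 0 at P7 and P14.

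The potassium, water and transcription factor members showed no difference between the genotypes beyond counting error at either age. Aqp4 was 0.931 times the control level in the KO at P7 and 0.944 times at P14, with a range allowed by the bounds, on the scale of FPKM + 1, of 0.789 to 1.15 and 0.857 to 1.05. Kcnj10 was at 0.867 and 1.08 times the control, with ranges of 0.757 to 1.04 and 0.965 to 1.20. Sox9, at 0.863 and 1.05 times, had ranges of 0.731 to 1.05 and 0.848 to 1.25. The overlap of bounds does not show that these levels are equal, and the ranges leave out the spread between mice.

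Markers of several other cell types and states differed between the genotypes at P14. The lists share genes, such as Trpm1 (pigment epithelium and bipolar cells) and Gfap (astrocytes and reactive glia), so their counts and sums are not independent. Pigment epithelium markers were lower beyond counting error for 10 of 14 and higher for 0, and the erythroid markers summed to 356 FPKM in the KO and 1180.05 in the control. Reactive glia markers were higher for 6 of 12 and lower for 0, with a sum of 570.2 FPKM in the KO and 386 in the control. Gfap, an intermediate filament gene of astrocytes and reactive glia, stood at 9.03 FPKM in control P7, 9.02 in KO P7, 9.32 in control P14 and 20.6 in KO P14. The 11 astrocyte markers, with Gjb6 under 0.1 FPKM in every library, summed to 63.4 and 72.7 FPKM at P7 and to 67.5 and 80.6 FPKM at P14 in control and KO. Immediate early genes were higher for 7 of 10 and lower for 0, with Egr1 at 5.15 FPKM in the control and 18.9 in the KO and Fos at 9.94 and 20.9 FPKM. Ganglion cell markers were higher for 7 of 10 and lower for 0, rod markers higher for 9 of 12 and lower for 1, and bipolar cell markers higher for 1 of 12 and lower for 7. Over all genes 7.45% were higher and 8.26% lower at P14, and 38.5% of genes at 50 FPKM or more differed in either direction. The rod markers all stood above that level, and their median log2 difference was 0.08. The part of these cells and states in the differences of Glul, Apoe, Car14 and Dkk3 at P14 was not tested.

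**Figure D4:**
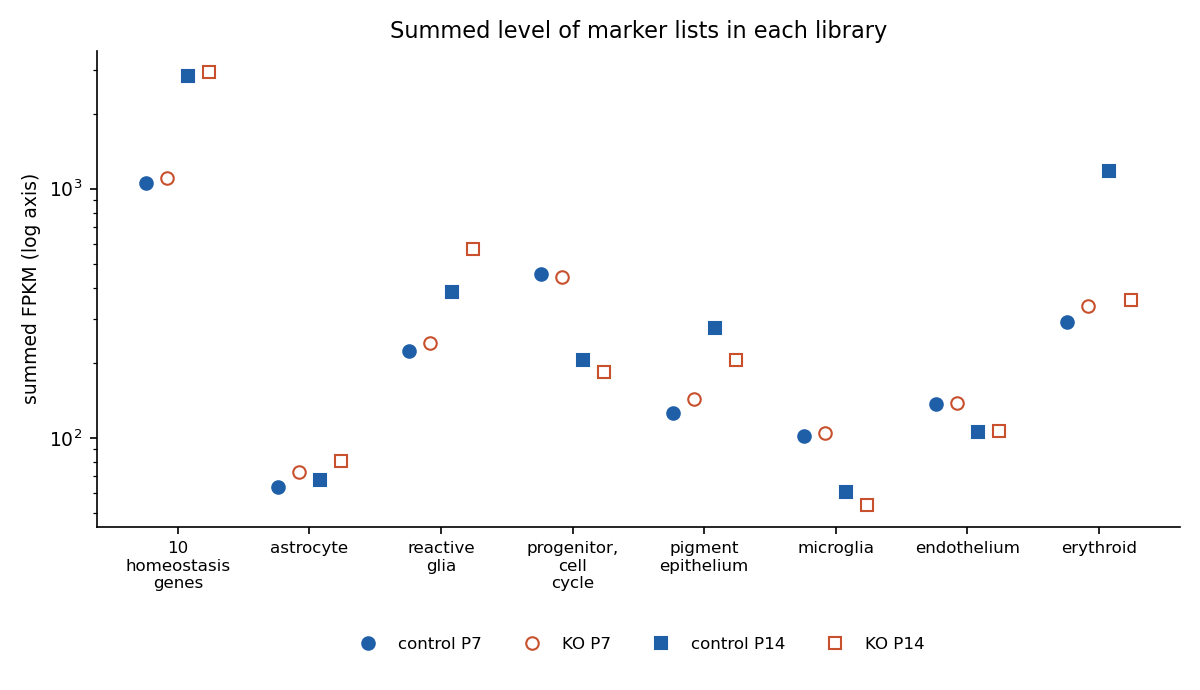
Summed FPKM (log axis) of the 10 genes and of marker lists of other cells in the 4 libraries, control filled and KO open, P7 as circles and P14 as squares. The 10 genes rise with age about equally in both genotypes (1058 to 2831 FPKM in the control, 1101 to 2930.2 in the KO), while the erythroid sum is high in control P14 alone, at 1180.05 FPKM.

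Mueller glia genes as a wider group did not rise together with age. Of 29 other genes of these cells, the age term of limma called 10 higher and 17 lower at P14. Over all genes the term called 30.7% higher and 40.6% lower. The bounds were apart upward for 10 and downward for 18 in each genotype, with a median log2 difference of -0.46 in the control and -0.57 in the KO. Bounds over all genes were apart upward for 27.6% and downward for 37.7% in the control, and for 29.0% and 39.4% in the KO. Among those that rose was Rgr, a retinal G protein-coupled receptor gene shared with the pigment epithelium, from 9.47 to 49.0 FPKM in the control and from 13.3 to 40.7 in the KO. Abca8a, a lipid transporter gene, rose from 5.45 to 24.3 and from 5.16 to 17.5 FPKM. Cav1, the caveolin-1 gene, rose from 12.2 to 32.9 and from 8.57 to 28.3 FPKM, and Mlc1, a membrane protein gene of glial endfeet, from 19.4 to 47.8 and from 19.9 to 52.7 FPKM. The genes that fell included Crym, the gene of the thyroid hormone-binding protein mu-crystallin, which went from 308 to 70.2 FPKM in the control and from 323 to 73.2 in the KO. Hes5, a Notch target gene, fell from 18.2 to 4.06 and from 19.0 to 4.64 FPKM.

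Transcription factors of glial fate fell with Sox9. The age term called 13 of 17 lower and 1 higher at P14, where it called 40.6% of all genes lower and 30.7% higher. Nfib and Nfix, nuclear factor I genes, went from 9.48 to 2.71 FPKM and from 32.7 to 12.6 FPKM in the control, and from 9.14 to 2.41 FPKM and from 33.5 to 12.99 FPKM in the KO. Rax, a homeobox gene of retinal progenitors and Mueller glia, fell from 149 to 76.5 FPKM in the control and from 146 to 86.5 in the KO. Of the 19 genes listed here 11 are also on the list of other Mueller glia genes, so the counts are not independent.

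Partner genes of the members went in several directions. Of 12 potassium and water genes, the age term called 6 higher and 2 lower. Over all genes it called 30.7% higher and 40.6% lower. Aqp1, a water channel gene, rose from 1.69 to 49.5 FPKM in the control and from 1.90 to 50.99 in the KO, a larger log2 change (4.23 and 4.17) than that of Aqp4. Dag1, which encodes dystroglycan, the anchor of the endfoot complex, fell from 44.3 to 17.0 and from 50.8 to 17.9 FPKM. Of 15 genes of glutamate uptake and the glutamine cycle, 5 were called higher and 5 lower, near the shares over all genes. Slc38a3, a glutamine transporter gene, rose from 76.7 to 179.7 FPKM in the control and from 73.7 to 152 in the KO.

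Acid-base and retinoid genes mostly rose, as Car14 and Rlbp1 did. Of 15 genes of carbonic anhydrases and bicarbonate or lactate transport, the age term called 11 higher and 3 lower. Its calls over all genes were 30.7% higher and 40.6% lower. Slc16a1 and Slc16a3, both monocarboxylate transporter genes, rose from 18.2 to 61.9 and from 4.61 to 37.0 FPKM in the control. Of 13 retinoid partners 9 were called higher and 2 lower, led by Rpe65, the isomerase gene of the pigment epithelium, at 1.84 and 20.9 FPKM in control P7 and P14 and at 2.02 and 16.5 in the KO. Of 13 lipoprotein partners 3 were called higher and 7 lower. Abca1, the lipid efflux transporter gene, fell from 27.5 to 2.07 FPKM in the control and from 30.0 to 2.74 in the KO, while Apoe and Clu rose. Of the Dickkopf and Wnt list 6 genes were tested, none of them a Dickkopf gene, and 0 were called higher and 5 lower. Dkk1 and Dkk4 stayed under 0.1 FPKM. Of these lists, 0 genes were called for genotype.

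**Figure D5:**
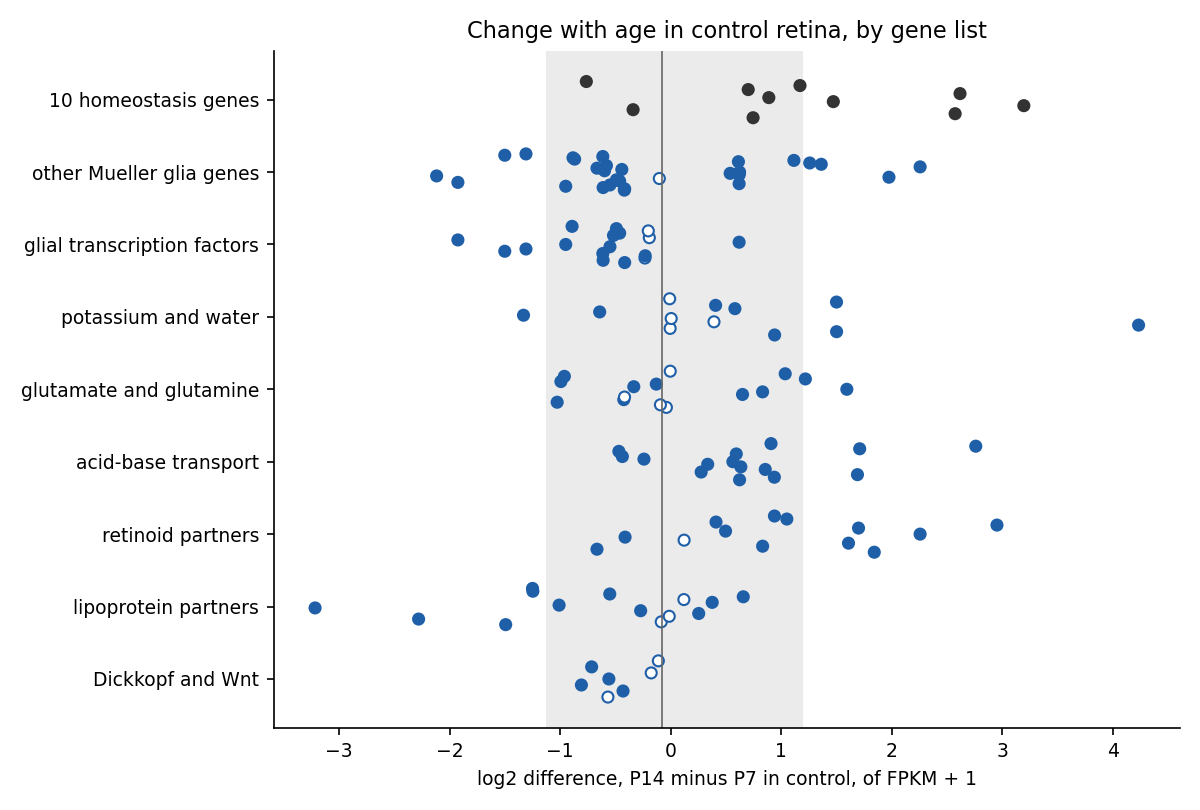
Change from P7 to P14 in control retina (x axis, log2 difference of FPKM + 1) for single genes at 1 FPKM or more, by list, filled where the bounds did not overlap, with the median of all genes as a line and percentiles 5 to 95 in grey. Of the 10 homeostasis genes 8 lie to the right of the line, and of the 17 glial transcription factors 1 rose beyond counting error.

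The 10 genes varied widely around their mean profile over the 4 libraries. Car14 lay nearest to it, with a root mean square distance of 0.07 on the log2 scale after each gene was centred on its own mean, followed by Kcnj10 (0.19) and Apoe (0.21). Aqp4 (0.97) and Sox9 (0.95) lay farthest, on opposite sides. Among 7588 other genes that reached 10 FPKM in any library, Pacsin2 (distance 0.004), Phyh (0.02), Fndc5, D16H22S680E, St6galnac6 and Bcl2l2 (0.03 each) were nearest to the mean profile. Pacsin2 stood at 23.5 FPKM in control P7, 23.2 in KO P7, 56.1 in control P14 and 57.6 in KO P14. This likeness rests on 4 libraries that differ mainly in age.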

How the data were processed

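Total RNA of whole retinas was reverse-transcribed from random primers and read as single ends, per the labels' protocols, which name no strand marking. The deposited values are FPKM with bounds, and the submitters' processing notes name Cufflinks 2.1.1, TopHat2 2.0.8b, CASAVA 1.8.2 and the mm9 build. Which annotation was used is not given in the sources used here. FPKM were summed over the loci of a symbol (251 symbols had several), and 16 symbols with a failed value and 761 small RNA genes or loci under 300 bases were left out of tests and shares. Differences were taken as log2(FPKM + 1), which understates changes of low genes, over genes at 1 FPKM or more in either library.

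Single pairs of libraries were compared by bounds alone. Age and genotype were tested with limma 3.58.1 (R 4.3.3), its spread following the mean level and p-values adjusted by Benjamini-Hochberg, over the 12925 genes that reached 1 FPKM in 2 or more libraries. With 1 residual degree of freedom, that fit borrows most of its spread from other genes (prior degrees of freedom 10.8). That 1 degree of freedom is the difference between the age change in the KO and that in the control. The standard errors and p-values thus do not measure the spread between replicate mice. Named genes of other lists were up to 4 a list and comparison (8 for Mueller glia) with the largest differences among those with bounds apart. Dkk1 and Dkk4, at or near 0, were named after their values were seen. Members and lists were chosen with earlier results of these data known.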

Additional observations from a re-analysis of the deposited data

Results flagged for a closer look

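Glul and Dkk3 drew attention because KO and control differed in opposite directions at P7 and P14, beyond counting error at each age. The log2 difference of Glul, KO minus control, was -0.15 at P7 and 0.083 at P14, and that of Dkk3 was 0.0905 at P7 and -0.14 at P14. The difference between the ages was not tested, since each group has 1 library. Of 12214 genes, 183 (1.498%) went apart in opposite directions in this way and 357 (2.92%) in the same direction, as did 2 and 1 of the 10 genes. Reactive glia markers were higher in the KO library at P14, summing to 570.2 against 386 FPKM, and their part was not tested.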

How the results depend on the processing

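Leaving a library out of the limma fit with both terms leaves 0 residual degrees of freedom, and leave-one-out fits with a single term were not run. Medians of the 10 genes moved by less than the counting range under a pseudocount of 0.1 FPKM, on a TPM scale, after centring on the median gene and with the midpoints of the bounds (an alternative added after the data were seen), 16 of 16 cases. The count of members beyond counting error became 0 at P7 and 0 at P14 between the genotypes when a difference of at least 1.5-fold was also asked for, and stayed within 1.5 times the reported count in the other 10 cases. The limma age call of members fell from 10 to 5 with no filter on low values, where the fit spread over 21781 genes and called 12.7% of them, and stayed at 10 in the other 6 alternatives. The genotype call stayed at 0 of 10 in all 7. Of the values of single genes 141 moved by less than their counting range and 19 by more, and 0 of those beyond counting error changed direction. With a pseudocount of 0.1 the rise of Aqp4 was 3.68 in the control and 3.69 in the KO. Rescaling to TPM took the median age change of all genes from -0.08 to -0.16 in the control and from -0.09 to -0.17 in the KO. The genotype term compares KO with control within each age. Without the age term it called 0 of 12925 genes, Fezf2 included, and with no filter on low values 0 of 21781. The 0 of 10 in those settings therefore says nothing about the members.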
